A study of Danio rerio with 6 samples.

Results

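The transcriptome of foxl2l+/+ germ cells was described from 3 libraries, which are 3 of the 6 in the series and the ones labelled with the wild-type allele. Their fish were zebrafish (Danio rerio) of the TL strain with the genotype foxl2l:egfp;foxl2l+/+, taken 21 days post fertilization. All groups of the series carry the foxl2l:egfp reporter, so the wild-type cells come from reporter fish too. The other 3 libraries come from foxl2l:egfp;foxl2l-/- fish and are not analysed here. Trunks with the gonad were dissociated, EGFP-positive cells were sorted by flow cytometry, about 300 for each genotype per the labels' protocols, and their RNA was amplified as full-length cDNA. The reporter selects cells in which the foxl2l promoter is or was active, so germ cells without it were not sampled. Whether separate fish or clutches gave the 3 libraries is not in the labels, so their spread may be partly technical.

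Zebrafish larvae first form a gonad with immature germ cells, and in many juveniles some of these enter meiosis and begin oocyte growth before the sex of the fish is settled. A germ cell that enters meiosis loads cohesin and axis proteins on its chromosomes, breaks and repairs its DNA, and joins the homologues with the synaptonemal complex. An early oocyte then stores maternal RNA, forms the Balbiani body, an aggregate of mitochondria, RNA and germ plasm, and starts to make egg coat proteins. Foxl2l is a forkhead transcription factor of germ cells.

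The libraries held 37221115 counts in replicate 1, 39189535 in replicate 2 and 25176401 in replicate 3. At least 1 count was found for 26616, 26658 and 25910 genes in that order, out of 31743. The reads were amplified and carry no molecular identifier, so these totals overstate how many molecules were sampled. Across genes, Pearson's r of log2(CPM + 1) was 0.9551 between replicates 1 and 2, 0.9565 between replicates 1 and 3, and 0.9663 between replicates 2 and 3. The common biological coefficient of variation estimated by edgeR was 30.1% over 20565 genes. Levels are given below in TPM, transcript abundance scaled by gene length and library size, which allows genes to be set side by side. Where 3 values follow each other they belong to replicates 1, 2 and 3 in that order. The spread of a gene is its highest over its lowest library as a fold, taken from counts scaled to TMM-adjusted library totals (CPM) for the 10187 genes with a mean of at least 10 CPM. These are called tested below, although with 1 group no statistical test was made. Of these, 718 genes or 7.05% reached 2-fold. With a minimum of 50 CPM the number was 107. The 7.05% is not matched for level, so it is an uneven reference for lists of abundant genes.

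A level of at least 1 TPM in each library was reached by 15969 genes, called expressed below. Of these, 7596 reached 10 TPM, 1693 reached 100 TPM and 107 reached 1000 TPM in each library. The median expressed gene stood at 11.3 TPM. The 100 most abundant genes of a library took 22.6 ± 2.1% of its TPM (SD, n = 3), and the 1000 most abundant took 61.0 ± 2.3%. Replicate 2 was the most concentrated of the libraries, with 24.8% in its top 100 genes, against 20.6% in replicate 1 and 22.4% in replicate 3.

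The medians of the germ cell lists stood far above those of markers of other cells of the trunk, though single members overlapped. They were 47.4 TPM for germ cell identity and 159 TPM for the piRNA and germ granule list. The marker lists had medians of 1.30 to 2.08 TPM. The lowest germ cell identity gene averaged 0.199 TPM, and the highest trunk marker, epcam, 142 TPM. The vasa helicase gene ddx4, the classical germ cell marker and the highest of its list, was at 1192, 1378 and 1390.5 TPM. In contrast, the 47 measured markers of the somatic gonad had a median of 1.30 TPM, and only 2 of them, col1a1b and inhbb, averaged at least 10 TPM. The steroidogenic enzyme gene cyp11a1 was at 9.53, 7.91 and 9.89 TPM. The aromatase gene cyp19a1a of the ovarian soma was at 1.37, 0.968 and 0.949 TPM, and the Sertoli and granulosa factor amh at 0.344, 0.556 and 0.650 TPM. The gonadotropin receptor gene fshr had reads in replicate 1 alone, at 0.0183 TPM. Summed over all 47, the somatic markers made 148, 152 and 166 TPM, close in the 3 libraries. Single markers differed more, with 3 of the 10 tested (30.0%) at 2-fold or more, against 7.05% of all tested genes. Replicate 3 was the highest for 6 of these 10 in CPM, against 29.9% of all tested genes.

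Markers of blood, immune cells and vessels had a median of 1.98 TPM over 28 genes and summed to 279, 174 and 179 TPM. Among these 28, replicate 1 was the highest in the sum through the alpha-globin gene hbaa1 alone, which was at 128, 9.98 and 6.79 TPM. Without hbaa1, the sums of the other 27 markers were 151, 164 and 172 TPM, lowest in replicate 1. The listed beta-globin gene hbba1 was not matched and is not in these sums. Its copies hbba1_1, at 113, 13.6 and 18.2 TPM, and hbba1_2, at 137, 11.6 and 6.61 TPM, were also highest in replicate 1. A 2-fold spread was found in 2 of the 7 tested blood, immune and vessel markers (28.6%), against 7.05% of all tested genes. The B cell receptor gene cd79a had no read, and the macrophage gene mpeg1.1 averaged 0.0557 TPM. Of 44 markers of muscle, liver, gut, skin, nerve and pigment, the median was 2.08 TPM and the sums were 441, 377 and 325 TPM. The highest was epcam, an epithelial adhesion gene, at 219.7, 107 and 97.9 TPM, followed by the muscle actin gene actc1b at 52.5, 51.0 and 52.8 TPM. The yolk protein genes vtg1 and vtg2, made by the liver, averaged 0.407 and 0.362 TPM. Of the 11 tested markers among these 44, 2 (18.2%) reached 2-fold, against the same 7.05%.

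**Figure D1:**
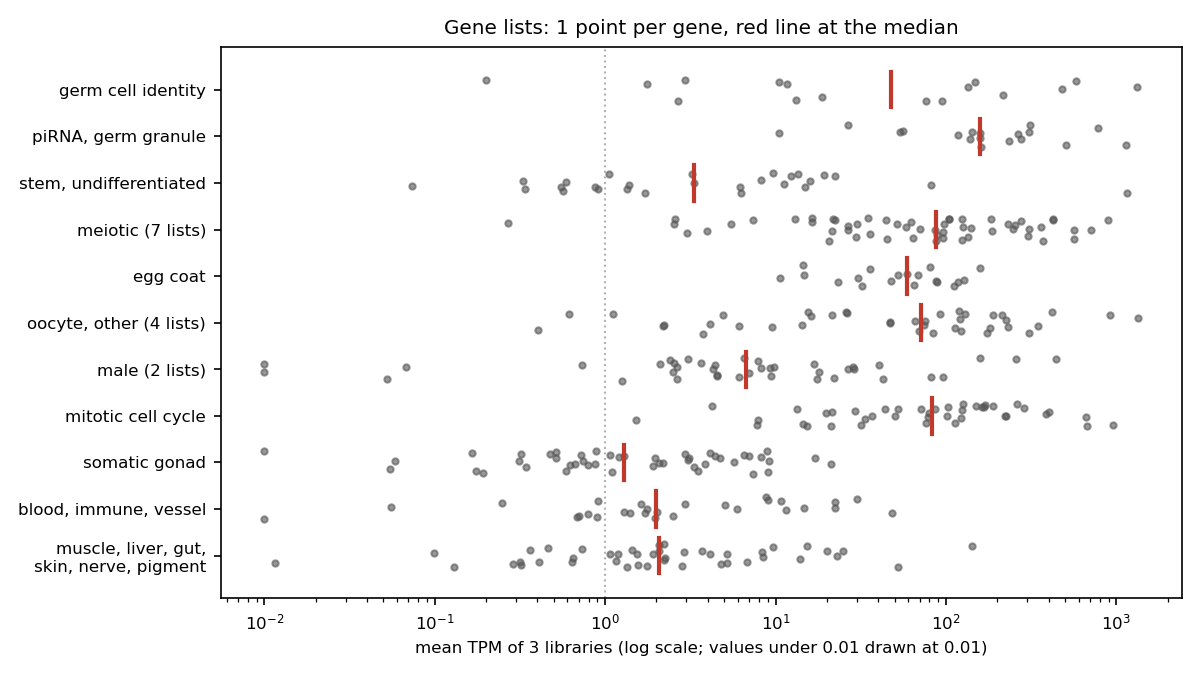
Mean TPM over the 3 libraries on a log axis, with 1 point per gene, 1 row per gene list or group of lists and a red line at the row's median. Meiotic lists centre between 26.6 TPM for meiotic entry and 495 TPM for the synaptonemal complex, the piRNA list at 159 TPM and the stem cell list at 3.32 TPM, while the somatic gonad, blood and other trunk lists centre between 1.30 and 2.08 TPM, near the dotted line at 1 TPM.

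Transcripts of the mitochondrial genome and of ribosomal proteins led the ranking. Of the 100 genes with the highest mean TPM, 10 lie on the mitochondrial chromosome and 34 encode ribosomal proteins. The cytochrome oxidase subunit gene mt-co2 ranked 1st, at 8906, 11548 and 10142 TPM. The ATP synthase subunit gene mt-atp6 followed at 6524, 10529.7 and 9614 TPM. A mitochondrial gene without a symbol, at positions 2043 to 3725 of that chromosome, was next, and RPL41, of the large ribosomal subunit, stood 4th at 5345, 7570.0 and 5911 TPM. The rest of the 15 highest held mt-co3, mt-cyb, mt-co1, rpl32, rpl18, rpl19, rplp0 and rps20, with hmgb2b, lsm6 and rbm8a.

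Outside those classes, the 15 most abundant genes were mostly of chromatin proteins, RNA processing factors and nuclear-encoded mitochondrial energy proteins. hmgb2b, a high mobility group protein that bends DNA, was the highest of them at 3879, 4181 and 4208 TPM. Its relatives hmgb1b, at 2472, 2505 and 3070.3 TPM, and the nucleosome binder hmgn2, at 2208, 2512 and 2996 TPM, were also among the 15 highest. lsm6, lsm7 and smx5 (symbol LSM2) encode subunits of the LSm ring on U6 RNA and averaged 3009, 2505 and 2417 TPM. The exon junction complex gene rbm8a averaged 2898 ± 183 TPM and tubb4b, a beta-tubulin, 2897 ± 367 TPM (SD, n = 3 each). The rest were slc25a5, the mitochondrial ADP/ATP carrier, atp5mc3b, cox7c, COX5B and cox5aa of oxidative phosphorylation, gapdhs of glycolysis and the histone gene h2afx1. None of these 15 reached a 2-fold spread between libraries, against 7.05% of all tested genes.

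foxl2l itself, listed in the file as zgc:194189 (ENSDARG00000008010) and named by the reference table, lies on chromosome 23 of GRCz11, from 29823286 to 29824146, on the minus strand. It stood at 959, 1095 and 1392 TPM and ranked 107th of all genes by mean TPM. Replicate 3 was the highest and replicate 1 the lowest, 1.47-fold apart in CPM. The labels do not say whether the reporter transcript holds foxl2l sequence, so reads of the reporter could be part of this level.

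Germ cell identity genes ranged widely. Of 18 listed symbols 16 were found, 15 of them expressed, with a median of 47.4 TPM. dazl, an RNA-binding translational regulator of germ cells, was at 533, 502 and 704 TPM, highest in replicate 3. dnd1, which protects germ cell transcripts from microRNAs, was at 573, 396 and 466 TPM, highest in replicate 1. tdrd7a of the germ granule was at 208, 234 and 211 TPM, and tdrd6, which organises Bucky ball aggregates, varied little at 94.6, 93.6 and 96.7 TPM. rbm46, an RNA-binding factor required for meiotic entry in mouse, was at 127, 113 and 163 TPM.

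Some other members of the germ cell identity list lay lower on the same scale. nanos3, a translational repressor of primordial germ cells, was at 16.6, 12.8 and 10.2 TPM. ca15b, a marker of early germ cells, was at 15.6, 5.33 and 14.3 TPM and lowest in replicate 2. With a spread of 2.66-fold, it was the only 1 of the 12 tested members (8.33%) to reach 2-fold, against 7.05% of all tested genes. The pluripotency factor gene sall4 averaged 1.76 TPM and prdm1a 0.199 TPM, the 2 lowest of the list.

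The machinery of piRNAs, small RNAs that silence transposons in the germ line, was expressed throughout. All 18 members found were above 10 TPM and 14 were above 100 TPM, with a median of 159 TPM. The Argonaute gene piwil1 was at 949, 1101 and 1351 TPM, highest in replicate 3. Its partner piwil2 was at 158, 156 and 159 TPM, nearly level between libraries. pld6, a nuclease of piRNA biogenesis, was at 716, 719.9 and 899 TPM, and the Piwi cofactor gtsf1, listed as zgc:56699, at 526, 489.8 and 502 TPM. The tudor and helicase gene tdrd9 was at 337, 272 and 327 TPM and asz1, a mitochondrial anchor of the pathway, at 329, 254 and 334 TPM. At the low end were ddx43, with a mean of 26.6 TPM, and tdrd3, with 10.4 TPM. None of the 18 reached 2-fold between libraries, against 7.05% of all tested genes. The largest spread, in ddx43, was 1.88-fold.

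Genes of the undifferentiated germ cell and stem cell list, which also holds foxl2l, were mostly low. Of 27 genes found 18 were expressed, and the median was 3.32 TPM. A mean of at least 10 TPM was reached by 9 of them, and of at least 100 TPM by foxl2l alone. nanog, a pluripotency factor that is also stored in the egg, was at 109.7, 56.7 and 78.1 TPM, highest in replicate 1 and lowest in replicate 2. nanos2, which marks germline stem cells, was at 3.48, 3.23 and 3.24 TPM, with a mean of 0.863 CPM. The GDNF receptor gene gfra1a averaged 0.549 TPM, the stem cell factor receptor gene kita 0.338 TPM and the repressor gene bcl6b 0.0733 TPM. taf4b, a TFIID subunit of germ cells, was at 21.8, 21.5 and 24.1 TPM, and etv5a, a transcription factor downstream of GDNF in mouse, at 15.9, 14.0 and 17.66 TPM.

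**Figure D2:**
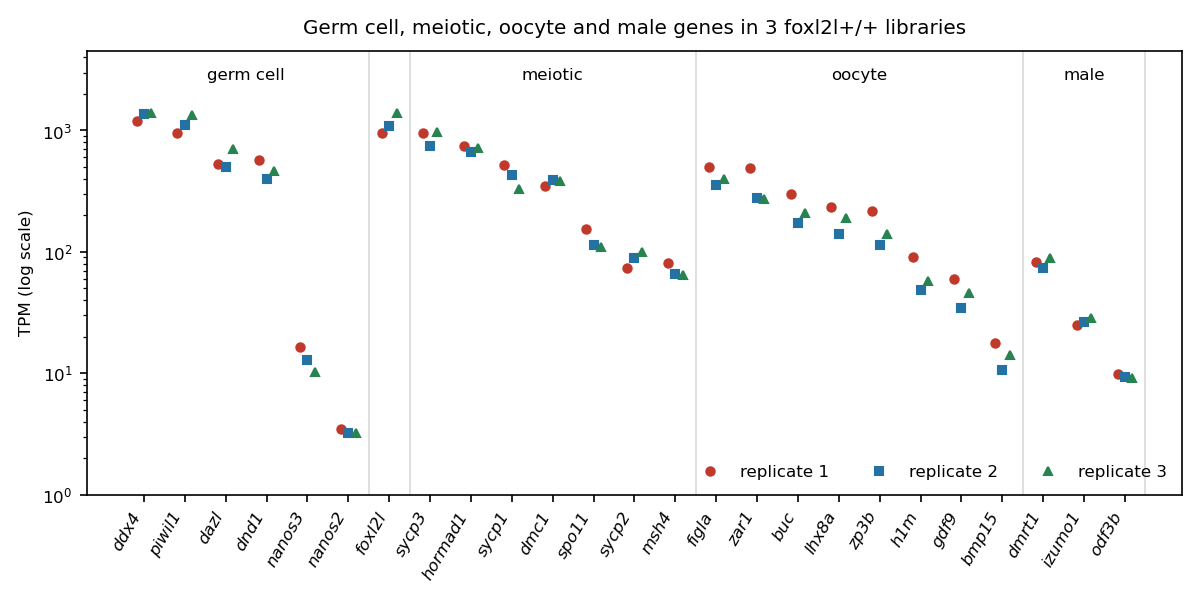
TPM of the named germ cell, meiotic, oocyte and male genes on a log axis, with 1 symbol per library and foxl2l in a column of its own. ddx4, piwil1 and foxl2l lie near 1000 TPM in all 3 libraries, nanos2 near 3 TPM, and the 8 oocyte genes are each highest in replicate 1.

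Meiotic genes as a whole lay above the median expressed gene. Over 7 lists, 56 genes were found, 55 of them expressed and 23 at 100 TPM or more. Their median was 87.1 TPM, against 11.3 TPM for all expressed genes. The 34 germ cell genes, which pool the germ cell identity and piRNA lists, had a median of 140.3 TPM. Taken separately, the germ cell identity list lay below the meiotic median, at 47.4 TPM, and the piRNA list above it, at 159 TPM. The medians of the meiotic genes in the separate libraries were 83.3, 84.0 and 79.8 TPM.

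Among meiotic entry genes, the m6A reader ythdf2 was at 91.3, 83.6 and 91.5 TPM and the m6A methyltransferase subunit mettl14 at 50.5, 47.7 and 37.5 TPM. Its catalytic partner mettl3 was at 20.7, 23.7 and 35.3 TPM. YTHDC2, a helicase that lets mouse germ cells progress into prophase and is listed here as LO017790.1, was at 4.0, 3.73 and 4.21 TPM. Retinoic acid is broken down by the cyp26 enzymes, and cyp26a1 and cyp26b1 averaged 2.54 and 0.268 TPM, the lowest of the list.

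The chromosome axis was represented unevenly. hormad1, a core axis protein, was at 743, 667 and 724 TPM, and trip13, the ATPase that removes it, at 284, 257 and 365 TPM. Of the cohesin subunits, rad21l1 was at 292, 223 and 244 TPM and smc1b at 207, 244 and 287 TPM. The remaining cohesin subunits were lower and differed between libraries. The kleisin gene rec8a was at 20.1, 12.4 and 47.9 TPM, its paralogue rec8b at 18.7, 11.02 and 31.8 TPM, and stag3 at 20.9, 12.5 and 31.8 TPM. All of these were highest in replicate 3 and lowest in replicate 2, by 3.57-fold, 2.67-fold and 2.34-fold in CPM. They were the only 3 of 51 tested meiotic genes (5.88%) with a spread of at least 2-fold, a share near the 7.05% of all tested genes.

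Synaptonemal complex genes had the highest median of the meiotic lists, 495 TPM, though only 4 of 10 listed symbols were found. The lateral element gene sycp3 was at 948, 747 and 976 TPM, and syce2 of the central element at 544, 571 and 578 TPM. sycp1, the transverse filament, was at 521, 428 and 328 TPM, highest in replicate 1 and lowest in replicate 3. sycp2, the other lateral element gene, ran in the opposite order at 73.1, 88.6 and 100.5 TPM.

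Break formation was represented at lower levels. The topoisomerase-like gene spo11, which cuts the DNA, was at 153, 114 and 110.4 TPM. mei4, a partner of spo11, was at 137, 103 and 130.1 TPM, and ankrd31, which recruits it to the axis in mouse, at 109, 87.8 and 63.5 TPM. ccdc36 was at 81.6, 40.1 and 53.4 TPM. Of the 6 genes of this list, 5 were highest in replicate 1 on both scales, against 34.4% of all tested genes in CPM and 41.7% in TPM. prdm9, a histone methyltransferase that places breaks in mammals, was at 24.7, 19.4 and 22.6 TPM, and rec114 averaged 21.5 TPM.

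Strand exchange genes followed. The meiotic recombinase gene dmc1 was at 347, 388 and 382 TPM. psmc3ip, an accessory factor of dmc1, was at 352, 331 and 405 TPM, and its partner mnd1 at 145, 117 and 157 TPM. sfr1, a recombination accessory factor, was at 249, 273 and 309 TPM, and the DNA binders spata22 and meiob averaged 186 and 104 TPM. At the bottom were brca2, a recombination mediator, at 5.33, 6.92 and 9.87 TPM, and tex15 at 2.76, 2.1 and 2.89 TPM. Replicate 3 was the highest library in 8 of 12 tested genes in CPM, against 29.9% of all tested genes, and in 9 in TPM, against 35.2%. None reached 2-fold, against 7.05% of all tested genes.

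Crossover genes had a median of 51.7 TPM over 13 members. CCNB1IP1, a ubiquitin ligase of crossover sites, was at 613, 531 and 544 TPM, far above its list. rnf212b was at 179, 175 and 195 TPM, its relative rnf212 at 60.9, 64.4 and 66.2 TPM, and tex11 at 133, 118 and 123 TPM. The MutS homologues that hold recombination intermediates together were alike, msh4 at 81.3, 65.4 and 64.2 TPM and msh5 at 55.1, 62.7 and 68.0 TPM. The late-acting mlh3 averaged 5.51 ± 1.27 TPM (SD, n = 3), the lowest of the list.

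Telomeres attach to the nuclear envelope early in meiotic prophase. spdya, an activator of cdk2 at telomeres, was at 418, 401 and 458 TPM. Of the complex that binds telomeres to the envelope, MAJIN was at 267, 277 and 376 TPM, terb1 at 96.5, 99.1 and 119 TPM and terb2 at 86.7, 84.4 and 119 TPM. These 4 of the 5 tested genes of the list were each highest in replicate 3 on both scales. Over all tested genes the share was 29.9% in CPM and 35.2% in TPM. The envelope genes were low, sun1 with a mean of 3.02 TPM and the gene listed as si:dkey-92f12.2 (sun2) with 16.3 TPM. sun1 was too low to be tested, and sun2 was highest in replicate 1.

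Oocyte genes were expressed in all 3 libraries. A 2-fold spread was found in 13 of 51 tested oocyte genes (25.5%), against 7.05% of all tested genes, and 11 of these 13 were egg coat genes. Among the other 32 tested oocyte genes it was found in 2 (6.25%), eif4enif1 and kpna7, a share near that of all tested genes. Of 59 genes found, 55 were expressed, with a median of 66.0 TPM. The medians of the separate libraries were 97.5, 33.4 and 51.3 TPM, and without replicate 1 the median of the member means was 42.3 TPM. On the CPM scale 41 of the 51 tested genes were highest in replicate 1, and so were 23 of the 32 outside the egg coat, against 34.4% of all 10187 genes tested, and 33 of the 51 were lowest in replicate 2, against 32.4%. In bulk RNA, fewer oocytes among the sorted cells of a library and less oocyte RNA per cell cannot be told apart.

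The transcription factor figla, a basic helix-loop-helix factor that activates egg coat genes, was at 502, 358 and 395 TPM. lhx8a, a homeobox factor of early oocytes, was at 236, 140.0 and 189 TPM. Both were highest in replicate 1 and lowest in replicate 2. zglp1, a zinc finger factor that sets the oogenic fate in mouse, was at 117, 107 and 141 TPM, highest in replicate 3. foxr1, listed as zgc:171734, was at 97.5, 67.9 and 59.5 TPM, while lhx8b was at 5.64, 7.19 and 5.46 TPM. The oocyte growth factor gene gdf9 was at 59.8, 34.7 and 45.8 TPM, bmp15 at 17.74, 10.6 and 14.3 TPM, and gdf3, a maternal Nodal partner, at 17.8, 11.4 and 19.0 TPM. Each growth factor gene was lowest in replicate 2, between 1.52-fold and 1.57-fold under the highest library.

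Egg coat genes showed the largest spread of the lists. They encode zona pellucida proteins, which form the envelope around the egg, and all 19 found were expressed. Their median was 59.0 TPM over the mean levels, and 106, 27.8 and 37.8 TPM in the separate libraries. Summed, they made 1861, 827 and 991 TPM. Replicate 1 was the highest for 18 of 19, both in CPM and in TPM, and replicate 2 the lowest for 15. A spread of at least 2-fold was found in 11 of the 19, against 7.05% of all genes tested.

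zp3b, the most abundant, was at 217, 114 and 142 TPM, a 1.74-fold spread in CPM. zp3a.2, on chromosome 20 at 33987465 to 33989427, was at 152, 27.8 and 16.0 TPM, a 9.33-fold spread. Its neighbour zp3a.1, at 33991801 to 33993698, was at 106, 24.9 and 12.5 TPM. In both, replicate 1 stood alone and replicate 3 was the lowest. Farther along chromosome 20, between 54290356 and 54316972, lie zp2.2, zp2.3, zp2.6, zp2.1 and zp2.5. zp2.5 was at 163, 29.0 and 70.6 TPM and zp2.3 at 96.6, 15.8 and 45.5 TPM. All of these zp2 genes were highest in replicate 1 and lowest in replicate 2, from 3.74-fold to 5.54-fold.

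Some egg coat genes differed little, while zp3e, listed as zgc:171779, differed 5.05-fold at 22.4, 4.04 and 5.58 TPM. zp3d.1 was at 92.5, 83.7 and 90.7 TPM, a 1.01-fold spread in CPM. zp3f.2, listed as si:ch211-14a17.6, was at 149, 109 and 126 TPM. Its neighbour zp3f.1, listed as si:ch211-14a17.7, was the exception to the pattern, at 133, 139 and 62.6 TPM, lowest in replicate 3 and 2.4-fold apart in CPM. Since many of these genes are near-identical neighbours, reads could have been split between copies, so the values of single members are uncertain. Replicate 1 was also the library with the most globin RNA of hbaa1, at 128 TPM, hbba1_1, at 113 TPM, and hbba1_2, at 137 TPM. The sum of the muscle, liver, gut, skin, nerve and pigment markers, at 441, 377 and 325 TPM, was highest there too. Its largest member was epcam, also highest in replicate 1. Of the 11 tested markers of that list, however, replicate 1 was the highest for 2 and the lowest for 7 in CPM. Over all tested genes the shares were 34.4% and 37.4%. The sum of the 27 blood markers without these globin genes, at 151, 164 and 172 TPM, was lowest in replicate 1. So was the sum of the somatic gonad markers, at 148, 152 and 166 TPM. The part of such cells in the egg coat levels was not tested.

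**Figure D3:**
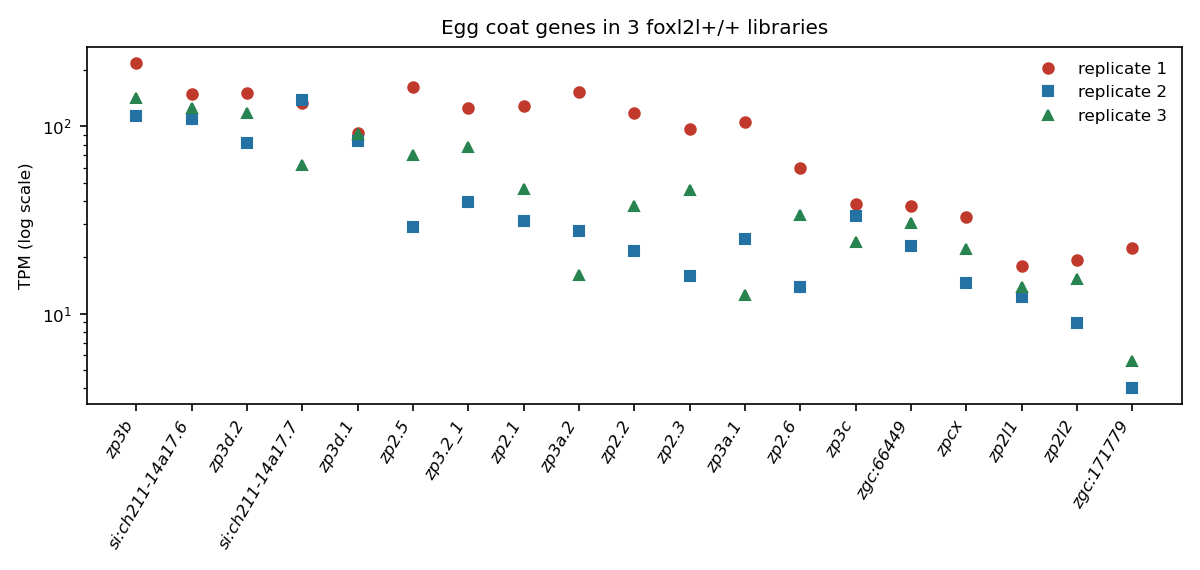
TPM of the 19 egg coat genes on a log axis, ordered by their mean, with 1 symbol per library. Replicate 1 is the highest for 18 of 19 genes, and si:ch211-14a17.7 is the exception.

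Genes of the Balbiani body and of maternal RNA control were moderately to highly expressed. Of 21 found 19 were expressed, with a median of 84.4 TPM. buc, Bucky ball, the organiser of the Balbiani body, was at 300.4, 172 and 207 TPM. Its RNA-binding partner rbpms2b was at 266, 168 and 209.7 TPM. pabpn1l, an oocyte poly(A)-binding protein, was the highest of the list at 1130.0, 697 and 938 TPM, and zar1, which keeps maternal RNA repressed, was at 494, 278 and 274 TPM. slbp2, an oocyte histone RNA binder, was at 301, 187 and 208 TPM. In all of these, replicate 1 was the highest.

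eif4enif1, a translational repressor, was at 100.5, 43.1 and 79.8 TPM. It was the only 1 of 17 tested members (5.88%) with a 2-fold spread, against 7.05% of all tested genes. Of these 17 genes, 14 were highest in replicate 1, against 34.4% of all tested genes. hwa, listed as si:dkey-121h17.7, encodes the maternal dorsal determinant huluwa and was at 141, 107 and 112 TPM. btg4, which drives the clearance of maternal RNA at egg maturation in mouse, was at 4.89, 0.645 and 0.990 TPM, too low to be tested. grip2b was the lowest at a mean of 0.405 TPM.

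Of other oocyte genes, the nucleoplasmin gene npm2a was at 314, 318 and 296 TPM and npm2b at 150.3, 139.6 and 99.0 TPM. On the CPM scale both were highest in replicate 2. The related npm1a, which is expressed in many cell types, was the most abundant at 1573, 1227 and 1238 TPM. h1m, the maternal linker histone, was at 91.0, 49.0 and 58.1 TPM and larp6b, a maternal RNA binder, at 236, 135 and 149 TPM. The oocyte importin gene kpna7 was at 30.1, 8.23 and 8.29 TPM, 3.57-fold apart, with replicate 1 alone at the top.

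Male genes were lower, with a median of 6.72 TPM against 66.0 TPM for oocyte and 87.1 TPM for meiotic genes. Of 40 genes found 32 were expressed, and the medians were 7.82, 5.93 and 6.56 TPM in the separate libraries. dmrt1, the conserved DM-domain factor of testis development, which is also expressed in early oocytes, was at 82.4, 73.7 and 88.7 TPM. tbpl1, a TBP-like factor, was at 46.8, 34.7 and 46.4 TPM, and the germ cell cyclin gene ccna1 at 38.1, 26.6 and 22.4 TPM. cremb, a relative of the spermatid activator CREM, was at 13.6, 29.2 and 11.5 TPM, highest in replicate 2 by 2.76-fold. Its paralogue crema, at 1.72, 4.6 and 1.27 TPM, was highest in the same library.

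Sperm structure genes split into a few abundant members and a low majority. odf3l2a, of the outer dense fibre family, was at 416, 428 and 491 TPM, and cfap20, a ciliary protein of many cells, at 260.5, 258 and 257 TPM. spata4 was at 83.1, 180.4 and 211 TPM, 2.58-fold apart and lowest in replicate 1. The sperm fusion gene izumo1 was at 25.1, 26.3 and 28.8 TPM and odf3b at 9.90, 9.27 and 9.12 TPM. odf2a, whose protein also sits at centrosomes, was at 11.9, 4.40 and 1.91 TPM, highest in replicate 1 by 6.15-fold. tssk6, a kinase of late spermatids, and tppp2 had no read in any library, which allows at most 0.0806, 0.0766 and 0.119 CPM, the level of 3 counts, as counting error alone.

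Cell cycle genes had a median of 82.9 TPM over 42 members. The replication clamp gene pcna was at 909, 961 and 1012 TPM. Of mitotic regulators, the ubiquitin enzyme gene ube2c, listed as ube2c_1, was at 655, 743 and 628 TPM, the checkpoint gene mad2l1 at 653, 749 and 601 TPM and cdk1 at 496, 366 and 345 TPM. The cyclin D gene ccnd1, whose product acts at the start of the cycle, was low at 1.70, 0.773 and 2.06 TPM.

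The 6 subunits of the replicative helicase, a set picked with its values in view, were all highest in replicate 3, in CPM and in TPM, against 29.9% of all tested genes in CPM and 35.2% in TPM. Over the 41 tested cell cycle genes, replicate 3 was the highest for 11 and the lowest for 21 in CPM, and the highest for 14 and the lowest for 16 in TPM, against 30.2% of all tested genes lowest there in CPM and 24.2% in TPM. mcm2 was at 176, 158 and 344 TPM, 2.01-fold apart. mcm5 was at 163, 136 and 271 TPM, while mcm7 differed least, at 111, 102 and 124 TPM. The opposite order was seen in gmnn, the geminin inhibitor of replication licensing, at 50.8, 32.2 and 18.2 TPM, and in the mitotic kinase gene plk1 at 209.6, 158 and 119 TPM. Replicate 3 was also the library with the fewest counts, and whether depth has a part was not tested for these genes.

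Over all 10187 tested genes, the median spread between libraries was 1.34-fold. At least 4-fold was reached by 62 genes, or 0.609%, and 8-fold by 18. The 10 CPM minimum is on the mean, so genes high in 1 library alone can pass it and enter these counts. A minimum of 10 CPM in each library was not tried. Of the 718 genes of at least 2-fold, replicate 1 was the highest library for 291, which is 2.86% of the genes tested. Replicate 2 was the highest for 227 (2.23%) and replicate 3 for 200 (1.96%). Over all tested genes, the highest library was replicate 1 for 34.4%, replicate 2 for 35.7% and replicate 3 for 29.9%, and the lowest library was replicate 1 for 37.4%, replicate 2 for 32.4% and replicate 3 for 30.2%. With only 2 libraries, the count was 247 without replicate 1, 355 without replicate 2 and 382 without replicate 3. The fall follows in part from taking the fold over fewer libraries.

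Which library is called the highest depends on the scale for genes that differ little. Relative to TMM-scaled CPM, the deposited TPM moved the median tested gene by 0.05, -0.08 and 0.03 on the log2 scale in replicates 1, 2 and 3. In TPM, 5 of 30 tested germ cell genes were highest in replicate 2 and 15 in replicate 3, while in CPM the counts were 11 and 10. The shares of all tested genes moved the same way, with 23.1% highest in replicate 2 and 35.2% in replicate 3 in TPM, against 35.7% and 29.9% in CPM. For the oocyte genes the count in replicate 1 was 42 of 51 in TPM and 41 in CPM.

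**Figure D4:**
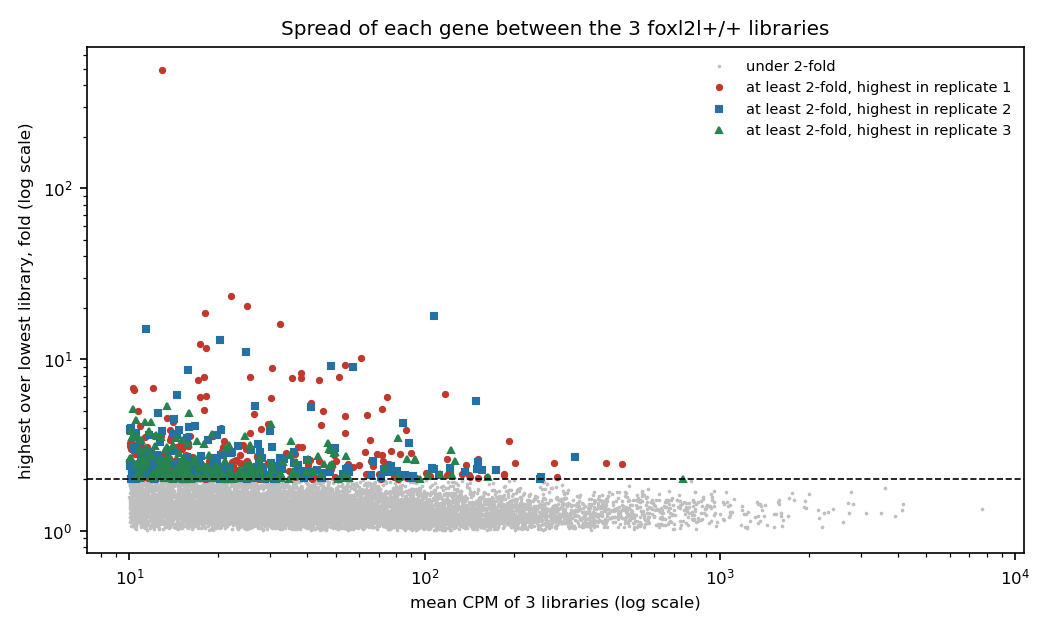
Highest over lowest library as a fold on a log axis, against the mean CPM of the 3 libraries on a log axis, with 1 point per gene and a dashed line at 2-fold. Genes of at least 2-fold are coloured by their highest library, and points far above the line, such as the globin and zp3a genes, lie mostly at low levels.

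A cluster of globin genes on chromosome 3, between 55098457 and 55105966, was among the most variable. hbba1_2 was at 137, 11.6 and 6.61 TPM, hbaa1 at 128, 9.98 and 6.79 TPM, and hbba1_1 at 113, 13.6 and 18.2 TPM. These genes of red blood cells were highest in replicate 1 by 7.56-fold to 20.5-fold. The beta-globin gene hbba2, which lies beside them, did not follow, at 18.7, 22.3 and 26.03 TPM.

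The largest spread of all tested genes was in CR383676.2, on chromosome 14, with 1459 counts in replicate 1 and none in the others. With 3 counts per library as the floor, this is at least 491-fold higher than in replicate 2 and at least 328-fold higher than in replicate 3. CR383676.2 passed the minimum mean through replicate 1 alone. zgc:175135_1 and zgc:175135_2, near-identical neighbours on chromosome 11, were at 47.9, 27.5 and 2.02 TPM and at 41.1, 20.8 and 3.49 TPM. zgc:158463 was the largest in the other direction, at 22.2, 361 and 47.2 TPM, with replicate 2 alone at the top by 17.9-fold. On chromosome 3, unc119.2 at 24.0, 23.7 and 1.70 TPM and the overlapping gene tspan4b at 24.5, 34.1 and 2.86 TPM were both low in replicate 3. The library chemistry does not record the strand, so reads of such overlapping genes cannot be told apart. celsr1b, a cadherin of planar cell polarity, was at 6.56, 12.04 and 1.44 TPM.

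Some variable genes lay side by side. Of the 718 genes 156, or 21.7%, were next to another in the order of tested genes, and 93 of these shared the highest library. Over all tested genes 7.05% were variable, and a gene can have a neighbour on either side. The share that genes placed at random would give was not computed. Runs of at least 3 neighbours with the same highest library numbered 9. They include the zp2 cluster with 6 genes, the globin cluster with 4, and 5 si:dkey-241l7 genes on chromosome 20 between 54013212 and 54035844. The highest of these, si:dkey-241l7.3, was at 248, 106 and 24.1 TPM. Of the 9 runs, 7 were highest in replicate 1, which was the highest library for 291 of all 718 variable genes. The others were rac3b, dcxr and rfng on chromosome 12 and pimr134, pimr125 and pimr124 on chromosome 20, which were highest in replicate 3. Genes listed under a clone name, some of which have a symbol in the name table, made 26.6% of the variable genes and 14.2% of those tested.

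Ribosomal protein genes moved as a block at small folds, a list likewise picked with its values in view. All 82 tested were highest in replicate 2 on the CPM scale, against 35.7% of all genes, and 76 were lowest in replicate 1, against 37.4%. On the TPM scale the counts were 79, against 23.1% of all genes, and 69, against 29.5%. Together they made 90895, 120291 and 99162 TPM. Only rps27l reached 2-fold (1.22% of those tested, against 7.05% of all tested genes), at 511, 690.5 and 372 TPM. The sums of the 37 genes of the mitochondrial chromosome followed the same order, at 43742, 58860 and 53321 TPM. Of the 17 tested, 12 were highest in replicate 2 in CPM and in TPM, against 35.7% and 23.1% of all genes. A 2-fold spread was found in 3 of these 17 (17.6%), against 7.05% of all tested genes. Of nuclear genes of oxidative phosphorylation, 68 of 102 were highest in replicate 2 in CPM and 43 in TPM, against the same shares of 35.7% and 23.1%. Replicate 2 was also the most deeply sequenced library, and whether depth or RNA quality has a part was not tested.

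**Figure D5:**
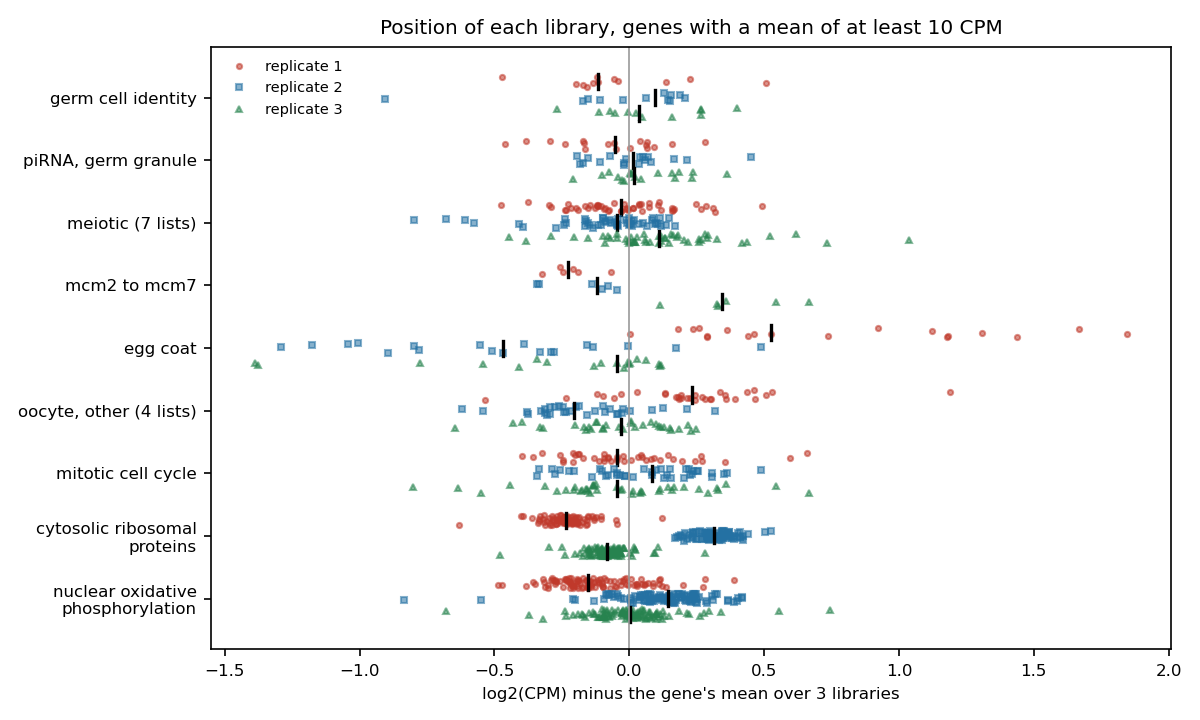
Position of each library for genes with a mean of at least 10 CPM, as log2(CPM) minus the gene's mean over the 3 libraries, with 1 point per gene and library and a black bar at the median. Egg coat genes sit at a median of 0.53 in replicate 1 and -0.47 in replicate 2, ribosomal protein genes at 0.32 in replicate 2, and mcm2 to mcm7 above 0 in replicate 3.

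Expressed genes lay on all chromosomes. On chromosome 4, 674 of 2331 genes, or 28.9%, were expressed, the lowest share, while the other nuclear chromosomes had 45.8% to 57.6%. Among nuclear chromosomes, the share of tested genes with a 2-fold spread was highest on chromosome 22, at 11.1%, and lowest on chromosome 11, at 4.12%.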

How the data were processed

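RNA sequencing of sorted germ cells was deposited as 1 table. Per the file headers, the authors gave each gene a total count per library, as raw whole numbers, and a TPM value, scaled by the authors for gene length and library size. Libraries were made with the SMART-Seq HT and Nextera XT kits, per the labels' protocols. Per the submitters' processing notes, bcl2fastq was used and the build was GRCz11. The sources used here do not give the aligner, counter or annotation release, or how reads matching several genes were treated. Copies of near-identical genes may therefore share reads. Another 18 columns of per-sample values were not used. A symbol was found in the reference name table for 28988 of the identifiers (91.3%).

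The 3 foxl2l+/+ libraries form 1 group, so no test was made and no p-value is given. Deposited TPM were used as they stand. Counts were scaled with TMM factors of edgeR 4.0.16 (R 4.3.3, with DESeq2 1.42.0 for RLE factors), and genes with a mean of at least 10 CPM were called tested. The steps were tested on simulated data. Of 429 symbols in 21 lists, 378 were matched by name or through the name table, and the rest are not analysed here. Named genes are the 15 highest by TPM, the 15 highest outside mitochondrial, ribosomal protein and eef1a genes, the 20 with the largest fold, in each list the 5 highest, 2 lowest and 4 largest folds, and a set of germ cell, meiotic, oocyte and male genes. Genes named outside this rule were chosen after their values were seen. The members and lists were chosen with earlier results of these data known. Alternatives were other scalings, filters, pseudocounts, thinning, leaving out mitochondrial genes, and each library left out in turn. Some single-gene results are left out.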

Additional observations from a re-analysis of the deposited data

How the results depend on the processing

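With only 2 libraries, the number of genes with a 2-fold spread was 247 to 382, against 718 with 3, which follows in part from taking the fold over fewer libraries. It was 4310 with a minimum of 1 CPM, 107 with a minimum of 50 CPM, 4829 with no minimum and a pseudocount of 0.5, and 316 with a pseudocount of 5 CPM. Other scalings, a pseudocount of 0.5 CPM and thinning gave 649 to 765. The share of the 100 most abundant genes was 20% without mitochondrial genes and 15.8% as a share of counts, against 22.6%, and 21.5% to 23.6% with 1 library left out. The meiotic median was 91.8 TPM without mitochondrial genes and 81.6 to 86.5 TPM with 1 library left out, against 87.1 TPM, and the male median was 8.24 TPM over members of at least 1 TPM, against 6.72 TPM. With 1 library left out, the oocyte median was 42.3 to 77.7 TPM, the germ cell median 135.0 to 146.0 TPM and the male median 6.03 to 7.18 TPM. Genes called expressed numbered 16748 to 20243 under the other thresholds and 16432 to 16782 with 1 library left out. Under other scalings, which were chosen after the data were seen, 17 or 18 egg coat genes and 40 to 42 oocyte genes were highest in replicate 1. No paired analysis was possible because the 3 libraries form 1 group and are set against no other. At 10 CPM or more counting error is small, but amplification from few cells limits precision in a way that depth does not show.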

Other observations

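Genes of chromatin and DNA methylation, a list chosen after the data were seen, were mostly expressed. Of 38 found 35 were expressed, and none of the 34 tested reached 2-fold between libraries, against 7.05% of all tested genes. The median spread of the list was 1.29-fold, near the 1.34-fold of all tested genes. The histone variant gene h2afx1, which marks DNA breaks when phosphorylated, was the highest at 2527, 2227 and 1892 TPM in replicates 1, 2 and 3, and h2afva, an H2A.Z gene, was at 710.1, 817 and 845 TPM. cbx3a, a heterochromatin protein, was at 465, 374 and 409 TPM, and hells, a helicase that aids DNA methylation, at 308, 199 and 267 TPM. The Polycomb methyltransferase gene ezh2 was at 155, 150.2 and 156 TPM and pcgf6, of a Polycomb complex of germ cells, at 125, 94.0 and 141 TPM. The maintenance methyltransferase gene dnmt1 was at 34.9, 39.1 and 45.9 TPM and its partner uhrf1 at 42.6, 45.4 and 49.9 TPM. The de novo methyltransferase gene dnmt3aa averaged 0.483 TPM, and the demethylase genes tet1 and tet2 averaged 0.209 and 0.152 TPM.

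Receptors were low by contrast. Of 49 receptors of signalling pathways 25 were expressed, with a median of 1.29 TPM. The Wnt receptor gene fzd7b was the highest at 45.4, 25.8 and 30.9 TPM, followed by the BMP receptor gene bmpr1ba at 24.1, 19.2 and 26.7 TPM and the TGF-beta receptor gene tgfbr1a at 24.1, 15.8 and 22.8 TPM. notch3, at 1.59, 4.11 and 3.70 TPM, was the only 1 of 15 tested (6.67%) with a 2-fold spread, against 7.05% of all tested genes. Of 28 nuclear hormone receptors 16 were expressed, with a median of 3.13 TPM. The retinoid receptor partner gene rxrga was at 26.1, 22.1 and 24.7 TPM and the thyroid hormone receptor gene thraa at 15.6, 20.3 and 21.3 TPM. The sex steroid receptor genes were lower, with means of 4.13 TPM for esr2b, 3.85 TPM for ar, 0.868 TPM for pgr and 0.477 TPM for esr1. Tubulin genes differed widely in level, from tubb4b, with a mean of 2897 TPM, tubb2b, with 1531 TPM, and tuba8l, with 1268 TPM, to tubb1, which had no read. Of the 17 found, 13 were tested and none reached 2-fold, against 7.05% of all tested genes.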
